A study of Mus musculus with 6 samples.

Results

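Cholesterol synthesis and the SREBP2 machinery that controls it were followed gene by gene in whole liver of mice lacking Lmln and of wild-type mice. The set holds 26 genes, chosen by name: 4 regulators, 20 enzymes from the first mevalonate steps to cholesterol, and Stard4 and Tmem97, genes that SREBP2 is known to drive. All 26 were in the table of 55367 gene names and all 26 were among the 18703 genes with enough counts to be tested. Lmln encodes invadolysin, a metalloprotease known to sit on lipid droplets. The 3 libraries of the knockout group (Lmln-/-, here Lmln-KO) and the 3 of the wild-type group (WT) came from liver of strain C57BL/6J. All samples were taken at 46 weeks except Lmln-KO replicate 3, taken at 39 weeks, so its age and its library cannot be told apart. The labels do not give sex, diet, feeding state, how the allele was made, or whether each replicate is its own animal.

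Cells make cholesterol from acetyl-CoA through mevalonate, isoprenoid diphosphates, squalene and lanosterol, and the liver is a main site of this synthesis. The transcription factor SREBP2 (gene Srebf2) is held in the endoplasmic reticulum by SCAP and the INSIG proteins while sterol is plentiful. When sterol falls, SCAP carries SREBP2 to the Golgi, where proteases release the part that enters the nucleus and switches on nearly every enzyme of the route. Sterol surplus acts through another factor, LXR, which drives genes of sterol export, including the bile transporters Abcg5 and Abcg8.

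The libraries held between 17388360 and 22494696 counts, the 3 Lmln-KO libraries being the deeper ones. For Lmln itself the Lmln-KO libraries held 4, 12 and 2 counts (replicates 1 to 3) and the WT libraries 79, 80 and 39. Transcripts of the sex chromosomes split the libraries unevenly. Lmln-KO replicates 1 and 2 and WT replicate 1 carried Y-linked transcripts, and Lmln-KO replicate 3 and WT replicates 2 and 3 carried Xist. These are called the Y-linked set and the Xist set, and differences within each are given as values with no test, because each holds 1 genotype by a single library. WT replicate 3 stood apart: it was the highest of the 6 libraries for 23.7% of tested genes and the lowest for 23.4%, against at most 17.6% and 19.2% in any other library. Hepatocyte markers were high in every library, as the tissue label says: 10 genes summed to 104149 to 115806 CPM in Lmln-KO and 117523 to 135864 CPM in WT.

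SREBP2 is known to act on short sterol regulatory elements near the start of its targets, beside CCAAT boxes bound by NF-Y. The 250 bases before the start of 22 members were searched in RefSeq promoters (GRCm38.p6), on both strands. The letters TCACNCCA were found in 3 of the 22 (13.6%), against 3.98% of the 11270 tested genes in the promoter table. CCAAT was found in 20 of 22 (90.9%), against 40.0%, and GGGCGG, the core of Sp1 sites, in 20 of 22 (90.9%), against 59.3%. The 3 members with TCACNCCA are shown with all capitals marking TCACNCCA, CCAAT or its reverse ATTGG. Srebf2 (chr15:82147095-82147150, plus strand) encodes the factor itself, Hmgcs1 (chr13:119690102-119690322, plus strand) an early enzyme, and Msmo1 (chr8:64733730-64733759, minus strand) a late enzyme. The Msmo1 stretch was cut short because the longer stretch around its marks overlaps an annotated exon.
Srebf2: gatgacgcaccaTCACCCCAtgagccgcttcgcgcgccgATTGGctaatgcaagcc
Hmgcs1: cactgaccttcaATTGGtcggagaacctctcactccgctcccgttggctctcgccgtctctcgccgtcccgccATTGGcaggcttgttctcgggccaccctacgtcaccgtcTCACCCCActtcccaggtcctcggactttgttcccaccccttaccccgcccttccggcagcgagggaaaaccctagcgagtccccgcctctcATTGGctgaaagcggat
Msmo1: attcTCACTCCAtccgcgcagCCAATgact
In all 3 stretches a CCAAT box stood near the TCACNCCA match. A match is a run of letters, and no binding was measured here.

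Mvd and Ebp are shown as the members whose levels varied most and least between libraries. Mvd (chr8:122443433-122443494, minus strand) ranged 13.7-fold and Ebp (chrX:8193551-8193694, minus strand) 1.15-fold. Capitals mark CCAAT or ATTGG.
Mvd: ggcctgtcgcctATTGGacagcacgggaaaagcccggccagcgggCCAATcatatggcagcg
Ebp: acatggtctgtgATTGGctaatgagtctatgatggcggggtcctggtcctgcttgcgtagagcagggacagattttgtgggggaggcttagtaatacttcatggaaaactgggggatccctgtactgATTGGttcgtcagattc
Both hold 2 CCAAT boxes and 0 matches to TCACNCCA, so these letters did not separate the most variable member from the least variable one.

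Across the 26 genes the mean difference pointed to higher levels in Lmln-KO, and no single gene passed the test. The log2 fold change of Lmln-KO over WT was above 0 for 23 of 26, where 49.4% of all tested genes were above 0. Its median over the 26 was 0.41, against -0.004 over all tested genes. The 3 below 0 were Scap, Ebp and Sc5d. Most of the 26 moved together across libraries, so the 23 are not separate observations. Taken per library, the mean log2 CPM of the 26 was 6.10 ± 0.34 in Lmln-KO and 5.62 ± 0.56 in WT (SD, n = 3). The pooled SD between libraries was 0.46. In whole tissue, fewer cells of a type and less RNA per cell cannot be told apart. By edgeR's quasi-likelihood test with Benjamini-Hochberg adjustment, 0 of 26 passed 0.05, as did 0% of all genes, and the smallest adjusted p among the 26 was 0.933. At an unadjusted p under 0.05 there were 0 of 26, against 4.66% of all genes (1.52% in the higher direction). That count was 4 of 26 with DESeq2 (2.59% of its genes) and 8 of 26 without WT replicate 1 (8.97% of the genes tested there). DESeq2 was run on 33955 genes, without the filter on low counts, so its shares are not over the same genes. DESeq2 called 0 of the 26 and 22 genes in all (0.0785% of the 28027 it gave an adjusted p). The limma-voom fit called 0 of the 26 and 0 genes in all (0%). Groups without overlap were seen for 2 of 26, Fdps and Tmem97, both higher in Lmln-KO. Of all genes 10.3% had no overlap in either direction, 4.61% being higher in Lmln-KO. On simulated counts the test recovered 32% of genes changed 2-fold and 88% of those changed 4-fold, so changes near 2-fold were often missed at this number of libraries. These rates may not carry over to the real libraries, where the same test did not call Lmln itself. Its log2 fold change was -3.72, with an unadjusted p of 0.000228 and an adjusted p of 0.933 by edgeR. DESeq2 called it (adjusted p 5.3e-06). A count of 0 called is therefore weak evidence of no change.

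**Figure D1:**
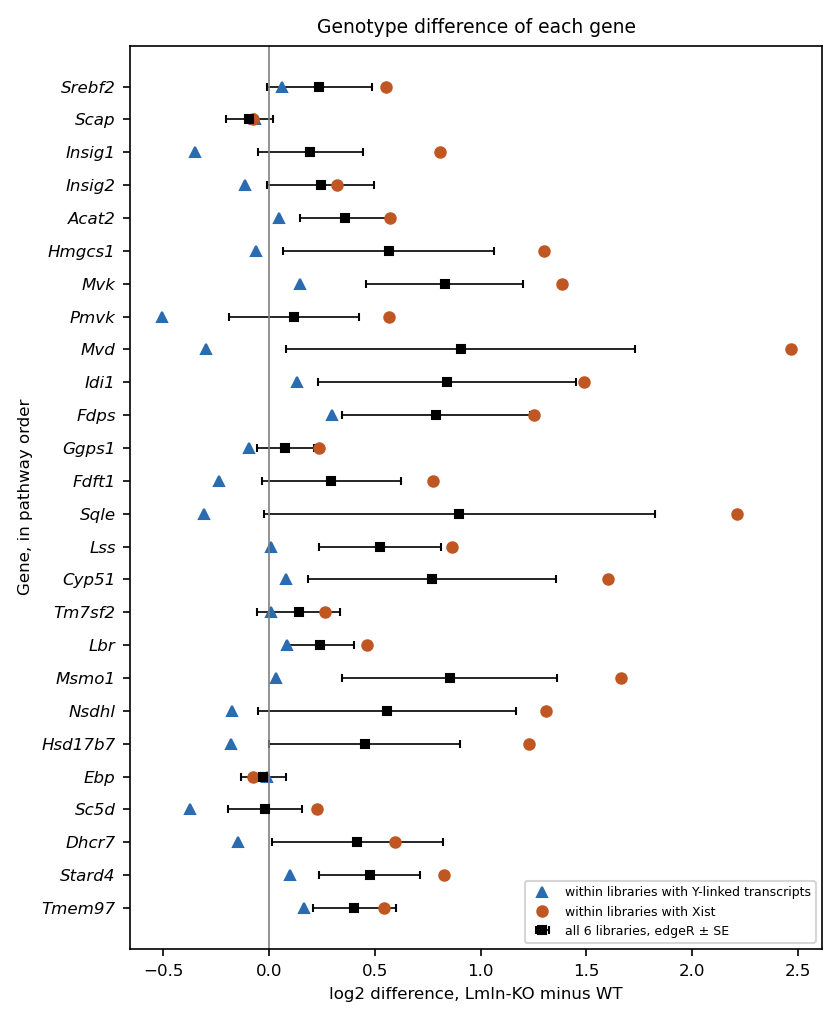
Log2 difference of Lmln-KO minus WT for each of the 26 genes: squares with bars are the edgeR estimate and its SE over all 6 libraries, triangles the difference within the Y-linked set and circles that within the Xist set. The circles lie above 0 for 24 of 26 genes and the triangles for 12 of 26.

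The difference took other values in the Xist set than in the Y-linked set. Within the Xist set 24 of 26 genes were higher in Lmln-KO, with a median difference of 0.79 (all genes: 51.2% higher). Within the Y-linked set 12 of 26 were higher, with a median of -0.04 (all genes: 48.7% higher). A test of that difference for each gene (genotype by sex-marker interaction, edgeR) called 0 of 26, as it did 0% of all genes, and 2 of 26 had an unadjusted p under 0.05, against 2.43% of all genes. Those were Insig1 and Pmvk. The simulated test recovered 1% of 2-fold and 35% of 4-fold interactions, so it could see little. With the sex-marker set as a term in the fit, 23 of 26 genes were above 0 with a median of 0.33 and 0 were called. In that fit 0.00535% of all genes were called, and 0 of 26 had an unadjusted p under 0.05, against 4.34% of all genes. DESeq2 with the term called 0 of the 26 and 0.154% of the 17497 genes it gave an adjusted p.

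The library pattern was shared by most of the route, and it was seen before it was counted. WT replicate 3 had the lowest level of all 6 libraries for 20 of 26 genes, as it did for 23.4% of all tested genes. Among the Lmln-KO libraries, replicate 2 was the lowest for 21 of 26 genes (33.8% of all genes). Among the WT libraries, replicate 3 was the lowest for 23 of 26 (34.6%). Both held for 21 of 26 genes, and for 9.7% of all genes. As a share of counts, the 26 genes together took 0.337%, 0.242% and 0.381% in the Lmln-KO libraries and 0.307%, 0.274% and 0.189% in the WT libraries. Lmln-KO replicate 2 thus lay below WT replicates 1 and 2, and the groups overlapped.

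**Figure D2:**
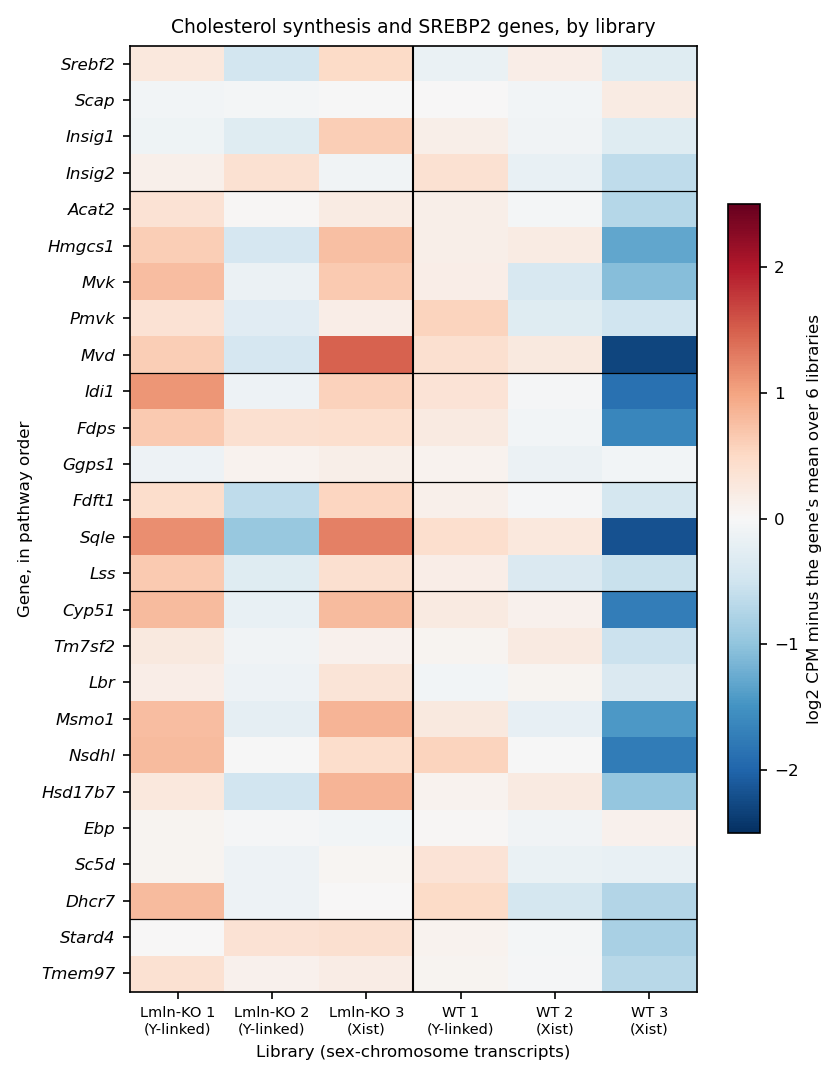
Each row is 1 of the 26 genes in pathway order and each column 1 library, coloured by log2 CPM minus the gene's mean over the 6 libraries; lines separate the pathway stages and the genotypes. WT replicate 3 is the bluest column for most enzymes, lowest for 20 of 26 genes, and Lmln-KO replicates 1 and 3 are the reddest.

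Spread between libraries was widest for Mvd, Sqle and Idi1. The highest library was at least 4 times the lowest for 8 of 26 genes, against 9.83% of all tested genes and 3.09% of the 8485 tested genes with a mean of at least 10 CPM. At least a 2-fold range was seen for 18 of 26, against 33.9% of all genes. The 8 with the widest range were Mvd (13.7-fold), Sqle (10.9-fold), Idi1 (7.82-fold), Nsdhl (5.79-fold), Cyp51 (5.77-fold), Fdps (4.91-fold), Msmo1 (4.85-fold) and Hmgcs1 (4.18-fold). Ebp (1.15-fold), Ggps1 (1.21-fold) and Scap (1.22-fold) were the narrowest. WT replicate 3 lay under 0.5 times the mean of WT replicates 1 and 2 for 9 of 26 genes, against 4.8% of all genes. Leaving that library out brought the median log2 fold change of the 26 from 0.41 to 0.16, with 22 above 0, and leaving out Lmln-KO replicate 2 or WT replicate 1 raised it to 0.52 or 0.56. With the sex-marker term, where it was 0.33, the median was 0.03 without Lmln-KO replicate 3, with 14 of 26 genes above 0. Leaving out WT replicate 3 instead gave 0.17, leaving out Lmln-KO replicate 2 gave 0.48, and leaving out WT replicate 1 gave 0.77. Without Lmln-KO replicate 3 that fit compares the genotypes only in the Y-linked set, and without WT replicate 1 only in the Xist set. The 0.03 and 0.77 thus restate the within-set medians (-0.04 and 0.79) and are no further check. For 25 of the 26 genes, all but Mvk, leaving out some single library moved the log2 fold change by over 1.5 times or past 0. WT replicate 3 did so for 23 genes, of which 21 came out lower without it. Genes near 0, such as Ebp (-0.03) and Sc5d (-0.02), cross this mark with small shifts. The share over all tested genes was not counted, so these counts are not a trait of the 26.

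The 4 regulators ranged at most 2.02-fold between libraries, and 3 of the 4 had a log2 fold change above 0 (median 0.22). Srebf2, the factor itself (chromosome 15, 82147181 to 82205379, GRCm38), stood at 103, 62.0 and 119 CPM in Lmln-KO replicates 1, 2 and 3 and at 76.5, 95.2 and 69.4 CPM in WT replicates 1, 2 and 3. CPM is the count scaled to library size with TMM, and values below follow this order of libraries. Lmln-KO replicate 2 was the lowest of the 6 for Srebf2 and replicate 3 the highest, so the groups overlapped. The means were 94.7 ± 29.6 and 80.4 ± 13.3 CPM (SD, n = 3). The log2 fold change was 0.24 (SE 0.247), 0.043 without Lmln-KO replicate 3 and 0.47 without Lmln-KO replicate 2. Scap, the escort that carries SREBP2 to the Golgi, was nearly level at 131, 134 and 137 CPM against 139, 131 and 159 CPM, and WT replicate 3 was its highest library. Its log2 fold change was -0.09 (SE 0.111).

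Insig1, which retains SCAP and is itself an SREBP2 target (chromosome 5, 28071363 to 28078662), read 309.9, 270.3 and 510.5 CPM against 369, 314 and 271 CPM. Lmln-KO replicate 3 stood above every other library, and the other 5 overlapped. Its difference was -0.35 in the Y-linked set and 0.81 in the Xist set. The gap between those, 1.15 (SE 0.292), had an unadjusted p of 0.00513 and an adjusted p of 1.0 by edgeR's interaction test. Insig2, the paralog that the liver also expresses, read 186, 223 and 161 CPM against 221, 151 and 110.2 CPM, the WT replicate 3 value again the lowest. Its log2 fold change was 0.24 (SE 0.255), 0.034 without WT replicate 3 and 0.55 without WT replicate 1.

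**Figure D3:**
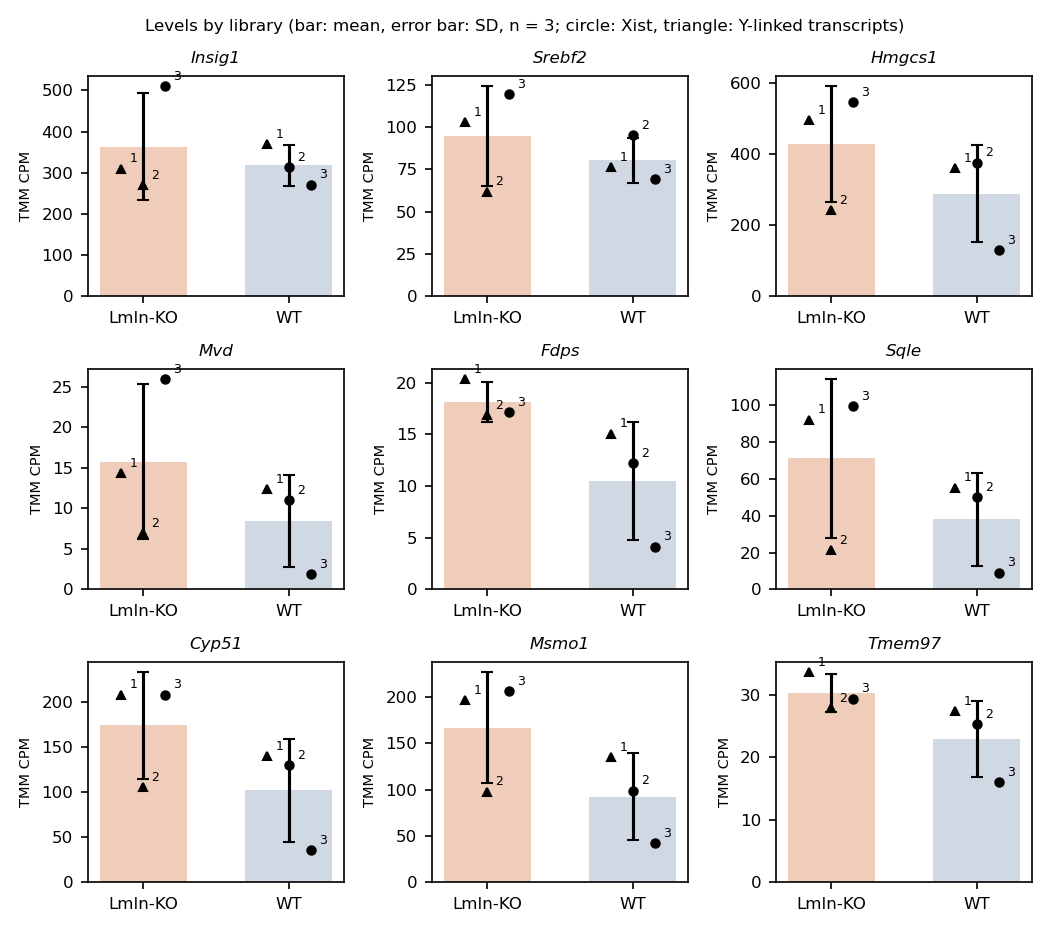
TMM CPM of 9 genes in each library, with bars for the group mean and error bars for the SD (n = 3); numbers name the replicate, triangles the libraries with Y-linked transcripts and circles those with Xist. WT replicate 3 is the lowest of all libraries in the panels for Hmgcs1, Mvd, Fdps, Sqle, Cyp51, Msmo1 and Tmem97.

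The mevalonate steps, Acat2, Hmgcs1, Mvk, Pmvk and Mvd, were all above 0 in log2 fold change (5 of 5, median 0.57), and none passed the test. Acat2, the thiolase that joins acetyl-CoA units, read 44.2, 35.0 and 39.5 CPM against 38.1, 33.4 and 21.1 CPM. Hmgcs1, HMG-CoA synthase (chromosome 13, 119690379 to 119708260), read 496, 242 and 548 CPM against 362, 377 and 131 CPM. Lmln-KO replicate 2 lay below WT replicates 1 and 2, and WT replicate 3 below all. Means of 429 ± 164 and 289.95 ± 138 CPM gave a log2 fold change of 0.57 (SE 0.498), with -0.06 in the Y-linked set and 1.30 in the Xist set. It was 0.22 without WT replicate 3.

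Mvk, mevalonate kinase, read 28.7, 15.2 and 26.5 CPM against 18.9, 12.6 and 8.06 CPM. Only Lmln-KO replicate 2 reached into the WT range. Its log2 fold change of 0.83 (SE 0.372) had the smallest unadjusted p of the 26, 0.0662, with an adjusted p of 0.933 by edgeR. Pmvk, the next kinase, read 23.3, 14.9 and 20.2 CPM against 26.5, 14.5 and 12.7 CPM, highest in WT replicate 1. Its difference was -0.51 in the Y-linked set and 0.57 in the Xist set, a gap of 1.04 (SE 0.382, unadjusted p 0.0292, adjusted p 1.0 by edgeR).

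Mvd, the decarboxylase that makes isopentenyl diphosphate (chromosome 8, 122433601 to 122443422), had the widest range of the set. It read 14.4, 6.99 and 25.96 CPM against 12.4, 11.02 and 1.90 CPM, from counts of 299, 148, 609, 208, 206 and 33. Lmln-KO replicate 3 was the highest library and WT replicate 3 the lowest, both in the Xist set, where the difference was 2.47. In the Y-linked set it was -0.30. The log2 fold change over all libraries was 0.91 with an SE of 0.824.

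The isoprenoid steps gave 3 of 3 above 0 with a median of 0.79. Idi1, the isomerase of the isoprenoid unit, read 21.6, 9.16 and 14.9 CPM against 12.8, 9.9 and 2.76 CPM. Fdps, farnesyl diphosphate synthase (chromosome 3, 89093588 to 89101959), read 20.4, 16.9 and 17.2 CPM against 15.1, 12.2 and 4.15 CPM. Every Lmln-KO library stood above every WT library for Fdps. Means were 18.1 ± 1.94 and 10.5 ± 5.68 CPM, a log2 fold change of 0.79 (SE 0.445, adjusted p 0.933 by edgeR), with 0.30 in the Y-linked set and 1.25 in the Xist set. Without WT replicate 3 it was 0.41. Ggps1, which makes the longer geranylgeranyl chain for protein prenylation, was nearly level at 10.9, 12.7 and 13.1 CPM against 12.6, 10.8 and 11.4 CPM.

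The squalene steps gave 3 of 3 above 0 with a median of 0.52. Fdft1, squalene synthase, read 67.4, 32.2 and 72.5 CPM against 54.9, 48.9 and 36.6 CPM, lowest in Lmln-KO replicate 2. Sqle, squalene epoxidase, a rate-controlling enzyme (chromosome 15, 59315077 to 59331192), read 92.0, 21.5 and 99.4 CPM against 55.2, 49.9 and 9.16 CPM. Each genotype thus held a library far below its other 2. Lmln-KO replicate 2 was at 0.224 of the mean of the other Lmln-KO libraries, and WT replicate 3 at 0.174 of the mean of the other WT libraries. Means of 71.0 ± 43.0 and 38.1 ± 25.2 CPM gave a log2 fold change of 0.90 (SE 0.924), with -0.31 in the Y-linked set and 2.21 in the Xist set. Lss, which closes the rings to give lanosterol, read 88.5, 45.7 and 74.4 CPM against 63.1, 43.8 and 38.1 CPM.

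The 9 enzymes from lanosterol to cholesterol were mixed, with 7 above 0 and 2 below and a median of 0.42. Those that strip methyl groups followed the library pattern closely. Cyp51, lanosterol demethylase (chromosome 5, 4081145 to 4104746), read 208, 106 and 208 CPM against 140.2, 130.0 and 36.1 CPM, a log2 fold change of 0.77 (SE 0.586). Lmln-KO replicate 2 lay below WT replicates 1 and 2. Msmo1, the methylsterol oxidase, read 196, 97.6 and 206 CPM against 135, 98.9 and 42.4 CPM, a log2 fold change of 0.85 (SE 0.508). Lmln-KO replicate 2 and WT replicate 2 were nearly equal for Msmo1. Nsdhl and Hsd17b7, which complete the same demethylation, read 71.0, 40.7 and 55.4 CPM against 60.7, 40.6 and 12.3 CPM, and 99.97, 59.8 and 150.1 CPM against 87.5, 96.9 and 42.3 CPM. Both overlapped between groups and were lowest in WT replicate 3.

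Enzymes that reduce or shift double bonds ranged less widely between libraries. Tm7sf2 read 93.8, 74.0 and 85.2 CPM against 82.7, 92.3 and 54.5 CPM, and Lbr, the lamin B receptor with the same sterol reductase activity, 21.8, 17.6 and 24.0 CPM against 18.5, 20.2 and 14.9 CPM. Ebp, the sterol isomerase (chromosome X, 8185329 to 8193512), was level at 159, 149.6 and 146 CPM against 156, 143 and 165 CPM, a log2 fold change of -0.03 (SE 0.107). Sc5d, the desaturase that follows Ebp, read 588, 517 and 583 CPM against 715, 504 and 491 CPM. WT replicate 1 was its highest library, and its difference was -0.38 in the Y-linked set and 0.23 in the Xist set. Dhcr7, the last reductase, was highest in the first replicate of each group, at 124, 65.8 and 72.8 CPM against 100.1, 53.3 and 43.5 CPM.

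Stard4 and Tmem97 are targets that handle sterol rather than make it. Stard4, a carrier of cholesterol between membranes (chromosome 18, 33199355 to 33213862), read 164, 209 and 213 CPM against 173, 157 and 92.0 CPM, a log2 fold change of 0.48 (SE 0.237, unadjusted p 0.0828, adjusted p 0.933 by edgeR). Lmln-KO replicate 2 was not low for Stard4, unlike for most enzymes. Tmem97, a sterol-binding membrane protein (chromosome 11, 78541817 to 78550777), read 33.6, 27.9 and 29.4 CPM against 27.3, 25.4 and 16.0 CPM. The groups did not overlap, although Lmln-KO replicate 2 and WT replicate 1 nearly met. Its log2 fold change was 0.40 (SE 0.196, unadjusted p 0.0749), and 0.20 without WT replicate 3.

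Levels of different genes are compared per kilobase of exon (RPKM, mean of the 6 libraries). Sc5d (116 ± 17.2 RPKM) and Insig1 (110.1 ± 29.3 RPKM, SD, n = 6) were the highest, and did not differ beyond their spread. Hmgcs1 (78.2 ± 33.8), Ebp (66.3 ± 3.64) and Insig2 (50.5 ± 12.5) followed, with overlapping ranges. The lowest were Fdps (3.40 ± 1.34), Idi1 (3.39 ± 1.80) and Ggps1 (2.52 ± 0.211), also overlapping. High level and narrow range did not go together: Ebp and Ggps1, the narrowest in range, stood near opposite ends of this order.

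Some members share sequence with other genes. Of the stretches of 36 bases in each gene's transcripts, 42.3% in Acat2 also occurred in transcripts of other genes (mainly Acat3), 30.3% in Fdft1 (mainly Ctsb), 27.6% in Fdps (mainly Gm43738), 26.5% in Idi1 and 24.2% in Tmem97 (Gm5809). With no such options recorded, featureCounts by default leaves out reads that overlap more than 1 gene or are marked as mapping to several places, so reads in shared stretches may be missing from these counts. Strand was not used, so Ctsb, on the strand opposite Fdft1, counts as such an overlap. Both genes without overlap between groups are among these, and their values are uncertain to that extent.

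Genes around the route were counted by function. Of 9 further synthesis enzymes and SREBP2 targets, 8 were tested and all 8 had a log2 fold change above 0 (median 0.21), with 0 at an unadjusted p under 0.05. Among them Aacs, which makes acetoacetyl-CoA in the cytosol, read 52.3, 158 and 60.2 CPM against 57.2, 52.5 and 31.0 CPM. A single library, Lmln-KO replicate 2, stood far above the rest for Aacs, and its log2 fold change was 0.94 with it and 0.26 without it. Genes of SREBP cleavage and sterol-regulated degradation gave 7 of 10 above 0 with a median of 0.02. Mbtps1, the Golgi protease that makes the first cut, read 91.8, 89.2 and 89.0 CPM against 82.4, 83.3 and 82.2 CPM. Its groups did not overlap, but the log2 fold change was only 0.12 (SE 0.0883).

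Most of the LXR list had lower means in Lmln-KO. Of 10 tested, 8 were below 0 (median -0.20), 3 had an unadjusted p under 0.05 (4.66% of all genes), 0 were called, and 4 were lower in every Lmln-KO library than in every WT library (5.73% of all genes). These 4 were Abcg1, Abcg5, Abcg8 and Lpcat3. Abcg5 (84658234 to 84683011, minus strand) and Abcg8 (84676302 to 84700333, plus strand) overlap in position on chromosome 17. Both are in the 4 and in the 3, so they may not be separate observations in these counts. Abcg5, a subunit of the transporter that moves sterol into bile, read 73.3, 86.6 and 107 CPM against 119, 116 and 262 CPM. Abcg8, its partner, read 119, 130.2 and 134 CPM against 168, 156 and 363 CPM. For both, WT replicate 3, the lowest library of the synthesis enzymes, was the highest. Their log2 fold changes were -0.90 (SE 0.359, unadjusted p 0.0462) and -0.84 (SE 0.332, unadjusted p 0.0416), with an adjusted p of 0.933 by edgeR for each. Without WT replicate 3 they were -0.40 and -0.35, and with the sex-marker term -0.70 and -0.69 (unadjusted p 0.102 and 0.125, edgeR). In the fit with the term 1 of the 10 had an unadjusted p under 0.05 (4.34% of all genes), Lpcat3. Lpcat3, which remodels phospholipids, read 76.9, 83.2 and 82.2 CPM against 93.4, 94.7 and 107 CPM, a log2 fold change of -0.28 (SE 0.102, unadjusted p 0.0233, adjusted p 0.933 by edgeR).

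**Figure D4:**
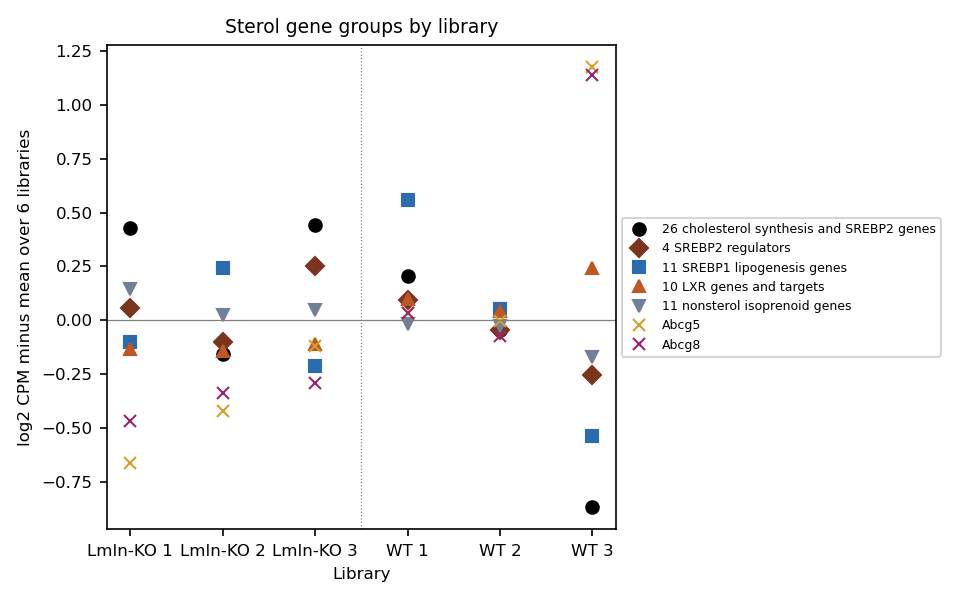
Mean log2 CPM of 5 gene groups, and of Abcg5 and Abcg8, in each library, relative to the mean over 6 libraries. In WT replicate 3 the 26 synthesis and SREBP2 genes lie at -0.87 while Abcg5 and Abcg8 lie above 1 on the same scale.

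Genes that use isoprenoids for products other than sterol (dolichol, ubiquinone and prenylated proteins) were all above 0, 11 of 11, but by little (median 0.14). Nus1, a subunit of the enzyme that makes dolichol, read 61.3, 59.6 and 59.0 CPM against 55.0, 50.7 and 49.9 CPM, a log2 fold change of 0.21 (SE 0.0907, unadjusted p 0.0493, adjusted p 0.933 by edgeR). Genes of sterol esterification, uptake and transfer gave 4 of 15 above 0 with a median of -0.12. Soat2, which esterifies cholesterol in hepatocytes, read 40.0, 36.7 and 39.8 CPM against 41.2, 40.3 and 54.8 CPM, again highest in WT replicate 3.

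Some marker lists also stood apart in WT replicate 3, and the sums of several did not overlap between the groups. The sums did overlap for the cholangiocyte, Kupffer cell, stellate and fibroblast, endothelial, erythrocyte and pericentral lists. For the Kupffer cell and endothelial sums WT replicate 3 lay within the range of the other libraries. The 10 hepatocyte markers (10 tested, 8 lower in Lmln-KO) summed to less in every Lmln-KO library than in every WT library, and were highest in WT replicate 3. A sum follows the most abundant markers. The marker mean weighs tested markers equally, as mean log2 CPM relative to the mean over 6 libraries. For hepatocyte markers it overlapped, at 0.005, -0.07 and -0.09 in Lmln-KO against 0.06, -0.09 and 0.19 in WT (replicates 1 to 3). Of 8 B and plasma cell markers 6 were tested and all 6 were lower in Lmln-KO. Their summed level was 15.2 to 29.9 CPM in Lmln-KO and 30.8 to 308 CPM in WT, the last in WT replicate 3. The 8 T and NK cell markers summed to 1.79 to 2.00 CPM in Lmln-KO and 2.79 to 6.56 CPM in WT, too low to test. Monocyte and neutrophil markers (5 of 8 tested, 5 lower) summed to 44.1 to 46.6 CPM in Lmln-KO and 59.98 to 62.1 CPM in WT. Their marker mean overlapped, at -0.06, -0.24 and -0.22 in Lmln-KO against -0.15, 0.37 and 0.30 in WT. By that measure WT replicate 1 lay within the Lmln-KO range. Periportal hepatocyte markers (8 of 8 tested, 7 lower) summed to 6380 to 6647 CPM in Lmln-KO and 7619 to 11346 CPM in WT, highest in WT replicate 3. The Lmln-KO sums were close together, but the marker mean was not, at -0.17, -0.004 and -0.42. In WT it was 0.14, -0.22 and 0.68, so the groups overlapped by that measure. Pericentral markers (8 of 8 tested, 8 higher) summed to 7257 to 10376 CPM in Lmln-KO and 5376 to 8769 CPM in WT, lowest in WT replicate 3. No marker of these lists was at 0 in all libraries. Their part in the results on the sterol genes was not tested.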

How the data were processed

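Whole-liver RNA of 3 Lmln-KO and 3 WT samples was sequenced after ribosomal RNA depletion with a directional kit (paired reads of 36 bases, 50 ng total RNA), per the labels' protocols. The authors deposited unscaled whole-number counts per gene name. These counts come, per the file headers, from featureCounts 2.0.1 over exons of Ensembl release 102 on GRCm38, without paired, strand or multi-mapping options. The deposited table also gives each gene's exon length, another unit, used for RPKM. Subread 2.0.2 and edgeR 3.36.0 also stand in the submitters' processing notes. An aligner is not given in the sources consulted.

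The genotype test used edgeR 4.0.16 (R 4.3.3) with default settings save those named (TMM, filterByExpr with a minimum count of 10, robust quasi-likelihood fit on genotype). P-values were adjusted by Benjamini-Hochberg over 18703 genes, which held 99.8% of counts. They measure the spread between these libraries, which may in part be technical. Every pair of libraries differed by more than sampling noise, and each was counted as 1 replicate. That does not show that each is its own animal. CPM and RPKM are TMM-scaled. Within-set differences are of log2 CPM with a prior count of 2. The sex-marker term is Xist above or below the sum of Ddx3y, Uty, Kdm5d and Eif2s3y, and was fitted beside the main test. Alternatives were DESeq2 1.42.0, limma-voom (limma 3.58.1), other scalings and filters, the replicate number as a block, a non-robust fit and leaving out each library. Members, lists and tests were chosen with earlier results of these data known. All 26 members are named, and of each further list up to 4 genes with the smallest unadjusted p could be. Lists are described by counts and medians beside those of all genes. Promoters came from RefSeq (GRCm38.p6), where 22 of 26 members matched, and shared 36-base stretches were counted in GENCODE M21 transcripts. A planned comparison of the Insig1 and Insig2 proteins was not run. The tests were tried on simulated counts first.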

Additional observations from a re-analysis of the deposited data

Results flagged for a closer look

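For 3 of the 26 genes every Lmln-KO library lay below WT among the libraries with Y-linked transcripts and above WT among those with Xist. With so few libraries in each set, such an order can arise easily. The share over all tested genes was not counted, so the count of 3 is not a trait of the 26. The difference between the 2 sets (the log2 interaction) was 1.15 for Insig1 (SE 0.292, unadjusted p 0.00513), which retains SCAP. It was 1.04 for Pmvk (SE 0.382, unadjusted p 0.0292), a kinase of the mevalonate route, and 0.60 for Sc5d (SE 0.302, unadjusted p 0.0852), a desaturase near its end. The adjusted p by edgeR's interaction test was 1.0 for each of the 3. Each set has 1 genotype by a single library, and Lmln-KO replicate 3, the one Lmln-KO library with Xist, is also the sample of 39 weeks, so the set, the age and that library cannot be told apart.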

How the results depend on the processing

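With 3 libraries a group and 18703 genes, changes near 2-fold were often missed in simulated counts. The effect of depth was not tested. The number of members above 0 stayed between 22 and 24 of 26 under every alternative to the fit by genotype, and 0 of 26 were called in any of them. The number of the 26 with an unadjusted p under 0.05, 0 in the fit by genotype, was 4 with DESeq2, 1 without a filter on low counts, 1 without the robust fit, 4 with the replicate block (6.46% of all genes) and 0 to 8 when 1 library was left out (8 without WT replicate 1, 4 without Lmln-KO replicate 2, where 2.93% of all genes passed). The number of genes called in all, 0 in the fit by genotype, was 22 with DESeq2, 3 without a filter on low counts, 1 with the replicate block, 1 with the sex-marker term, 2 with the interaction fitted and 0 to 3 when 1 library was left out. With the sex-marker term it was 1, then 27 with DESeq2 and 0 to 4 when 1 library was left out. There the number of members above 0 ran from 14 (without Lmln-KO replicate 3, where only the Y-linked set compares the genotypes) to 24. The interaction called 3 genes with DESeq2, against 0. Leaving out 1 library moved the log2 fold change of Insig1 from -0.12 to 0.37, of Pmvk from -0.076 to 0.51, of Tm7sf2 from -0.053 to 0.30, of Ebp from -0.082 to 0.021, of Sc5d from -0.12 to 0.18, of Acly from -0.40 to 0.13 and of Scd1 from -0.81 to 0.091. Samples with the same replicate number did not deviate together throughout (correlations of 0.46, -0.31 and 0.41 for replicates 1, 2 and 3). Replicates 1 and 3 shared a sex-marker set across genotypes and replicate 2 did not. These correlations therefore cannot show whether the numbers pair the samples. With the replicate block the median of the 26 was 0.43, 24 were above 0, and Sc5d came to 0.00028. The cause of these shifts was not tested.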

Other observations

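Genes of fatty acid synthesis, which the related factor SREBP1 is known to drive, shared part of the library order of the cholesterol genes. Of the 11, 6 were lowest in WT replicate 3, as were 20 of the 26 cholesterol genes, while 6 were highest in WT replicate 1. Of 11 tested, 6 had a log2 fold change above 0 (median 0.06), and with the sex-marker term 4 did (median -0.14). Scd1, the main desaturase of fatty acids in liver, read 7688, 9882 and 2228 CPM in Lmln-KO replicates 1, 2 and 3 and 13667, 5665 and 6751 CPM in WT replicates 1, 2 and 3. Lmln-KO replicate 3, the highest library for 12 of the 26 cholesterol genes, was the lowest for Scd1. Its log2 fold change was -0.40 (SE 0.607), and -1.06 (SE 0.246) with the term, where edgeR gave an adjusted p of 0.855 and DESeq2 0.00113. Acly, which supplies acetyl-CoA to both routes, was likewise lowest in Lmln-KO replicate 3, at 407, 423 and 283 CPM against 638, 337 and 341.3 CPM. Scd1 and Acly were named after their values with the term were seen. Of 15 circadian clock genes, 11 had a log2 fold change above 0 (median 0.14). In the fit by genotype 1 of the 15 had an unadjusted p under 0.05 by edgeR (4.66% of all genes). That was Dbp, with a log2 fold change of 0.38 (SE 0.145, unadjusted p 0.0310, adjusted p 0.933). Only for Dbp did the groups not overlap (10.3% of all genes). With the term 3 of the 15 had an unadjusted p under 0.05 by edgeR (4.34% of all genes), Per1, Dbp and Cry2. Per1, a clock repressor, had the largest difference of the 15 and went the other way, at 17.8, 13.8 and 42.4 CPM against 32.4, 61.4 and 75.0 CPM. The groups overlapped for Per1. Its log2 fold change was -1.19 (SE 0.553, unadjusted p 0.0838 by edgeR). With the term it was -0.86 (SE 0.141), where edgeR gave an adjusted p of 0.350 and DESeq2 0.00547. Per1, Dbp and Cry2 were named after their values were seen.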
